A study of Mus musculus with 12 samples.

Results

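The genes described here serve amino acid uptake, amino acid synthesis and folate-linked single-carbon metabolism in CD8+ T cells, the cytotoxic lymphocytes. They are 10 genes taken by name from the 50600 gene identifiers in the tables: Asns, Phgdh, Psat1, Shmt1, Shmt2, Mthfd2, Slc7a5, Slc3a2, Slc1a5 and Sesn2. The cells came from lymph nodes of male C57BL/6J mice, 8 weeks old, with no other allele or treatment named, and the animals had been held without light, so that only the internal clock marked the time of day (constant darkness). Polyadenylated RNA was sequenced at circadian times (CT) 2, 6, 10, 14, 18 and 22 h on day 2 and on day 1 of collection, which gave 12 libraries, 2 at each time. CT14, CT18 and CT22 fall in the subjective night, when mice are active, and CT2, CT6 and CT10 in the subjective day. How many mice each library pools is not in the labels, and the p-values therefore speak of the spread between libraries alone.

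Dividing T cells take up amino acids and make new ones at a high rate, and resting T cells do so at a low one. The light chain encoded by Slc7a5 and the heavy chain encoded by Slc3a2 form an exchanger of large neutral amino acids such as leucine, and Slc1a5 encodes a transporter of glutamine and other neutral amino acids. Phgdh and Psat1 encode the first and the second enzyme of serine synthesis from a glycolytic intermediate, Shmt1 and Shmt2 the cytosolic and mitochondrial enzymes that turn serine into glycine and load folate with a carbon unit, and Mthfd2 a mitochondrial enzyme that carries this unit on. Asns encodes asparagine synthetase, and Sesn2 encodes Sestrin2, a leucine sensor that restrains the growth kinase complex mTORC1. Several of the 10 genes are known targets of ATF4, the transcription factor that cells raise when amino acids run short.

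Asns has the letters of a C/EBP-ATF response element, through which ATF4 is known to act, right before its start site, and its sequence is shown because it is the single match among these genes. The motif TGATGNAA, where N is any base, was searched on both strands in the 250 bases before each start site of RefSeq. Of the 8 genes with such a window, Asns held it, and Phgdh, Psat1, Shmt1, Shmt2, Mthfd2, Slc3a2 and Sesn2 did not. Among all 27025 genes with a window, 3.91% held it. The stretch from 95 to 16 bases before the Asns start site lies on the minus strand at chr6:7693225-7693304 of GRCm38.p6, and capitals mark the motif, 23 to 16 bases before the start site. The GENCODE M21 gene model of Asns reaches to 7693254, so the end of the stretch with the motif lies within that gene model.
Asns: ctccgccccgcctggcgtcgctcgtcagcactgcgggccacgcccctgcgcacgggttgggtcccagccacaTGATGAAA

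The libraries held between 24689964 and 33497078 reads assigned to genes. Summed CPM, counts scaled to the size of each library, of 5 CD8 T cell and T cell receptor genes lay between 3724 and 4658 in all 12 libraries, so the defining markers of the labelled cell type were high in each, and markers of other cells were present too. Summed CPM of 9 monocyte and macrophage markers ranged from 277 to 1192, of 6 dendritic cell markers from 199 to 375, of 8 B cell markers from 163 to 333, of 5 NK cell markers from 21.8 to 44.1 and of 4 CD4 T cell markers from 69.6 to 113, and no marker of these lists was at 0 over all libraries. The CT10 library of day 1 and the CT2 library of day 2 held the least of the monocyte, neutrophil and dendritic cell markers. They also held the least NK cell and CD4 T cell markers and the lowest sums of 10 proliferation genes. These sums therefore share their 2 lowest libraries. B cell markers were lowest in CT2 of day 2. In such bulk samples fewer cells of a type and less RNA per cell cannot be told apart.

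All 10 genes were detected in every library, and their levels spread over about 2 orders of magnitude. In TPM, which scale transcripts for their length as well, the glutamine transporter gene Slc1a5 stood highest at 114 ± 10.5 and Asns lowest at 1.11 ± 0.51 (SD, n = 12). In between came Shmt2 at 90.4 ± 9.19, Phgdh at 85.9 ± 5.18, Slc3a2 at 80.8 ± 6.70, Mthfd2 at 37.0 ± 3.94, Psat1 at 29.2 ± 1.90, Slc7a5 at 22.5 ± 2.35, Shmt1 at 12.0 ± 1.53 and Sesn2 at 3.27 ± 0.59 TPM (SD, n = 12). Shmt2 was above Phgdh in only 8 of 12 libraries and Phgdh above Slc3a2 in 10 of 12, so the order of these 3 genes was not clear of their spread. Each other neighbour in the order was separated in the same direction in 12 of 12 libraries.

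**Figure D1:**
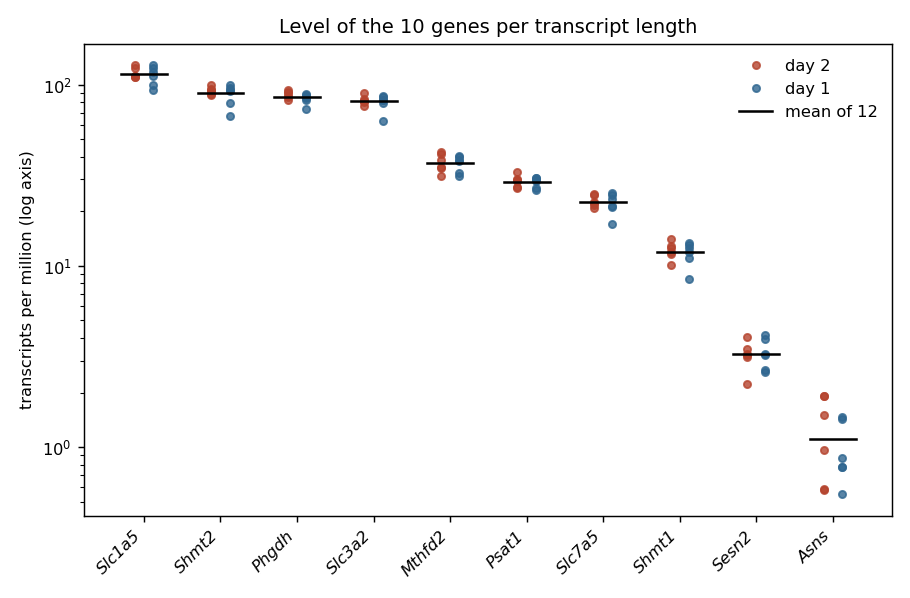
Level in TPM (log axis) of the 10 genes, ordered by mean. Points are single libraries of day 2 (red) and day 1 (blue) and black lines are means over 12 libraries. Slc1a5 averages 114 TPM and Asns 1.11 TPM, and the points of Shmt2, Phgdh and Slc3a2 overlap.

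TPM ratios between related genes were fairly steady for some pairs and spread more for others. The heavy chain gene Slc3a2 had 3.61 ± 0.17 times the TPM of its light chain gene Slc7a5, within 3.25 and 3.89 in all 12 libraries (SD). The mitochondrial Shmt2 had 7.61 ± 0.79 times the TPM of the cytosolic Shmt1, and Phgdh 2.95 ± 0.18 times that of Psat1 (SD, n = 12). Mthfd2 stood 12.8 ± 2.88 times above Mthfd2l, which encodes the related mitochondrial enzyme, with a range of 9.06 to 17.6 (SD, n = 12). Mthfd2 was at nearly the level of the cytosolic Mthfd1, whose TPM was 1.03 ± 0.10 times that of Mthfd2 (SD, n = 12). Sesn2 was the scarcest of the 3 sestrin genes, with Sesn1 at 11.6 ± 2.81 and Sesn3 at 14.3 ± 3.03 times its TPM (SD, n = 12). These ratios ranged from 8.40 to 16.9 for Sesn1 and from 11.4 to 21.5 for Sesn3.

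The question of the series is which transcripts of these cells follow the circadian day, and none of the 10 genes passed a test for it. With edgeR's quasi-likelihood F test and Benjamini-Hochberg adjustment over 16396 tested genes, 0 of 10 passed for a 24 h wave, for a difference among the 6 circadian times, for subjective night against subjective day, for day 2 against day 1, or for a wave that differed between the days. Of all tested genes, 0% passed for the wave, 0.256% for the circadian times, 0.421% for night against day, 0% for the day and 0% for the wave by day. With the day as a block, the 42 genes that passed for the times became 20, and the 69 for night against day became 9. At an unadjusted p under 0.05 the 10 genes gave 0, 0, 0, 0 and 1 in the same order of tests, where 13.3%, 12.7%, 17.6%, 1.82% and 4.44% of all tested genes lay under that limit. Neither DESeq2 nor limma passed any of the 10 in these tests. Of all 16396 tested genes, DESeq2 passed 246, 516, 595, 6 and 0 in the same order. Limma on TPM passed few of any genes, with 0, 14, 1, 0 and 0.

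**Figure D2:**
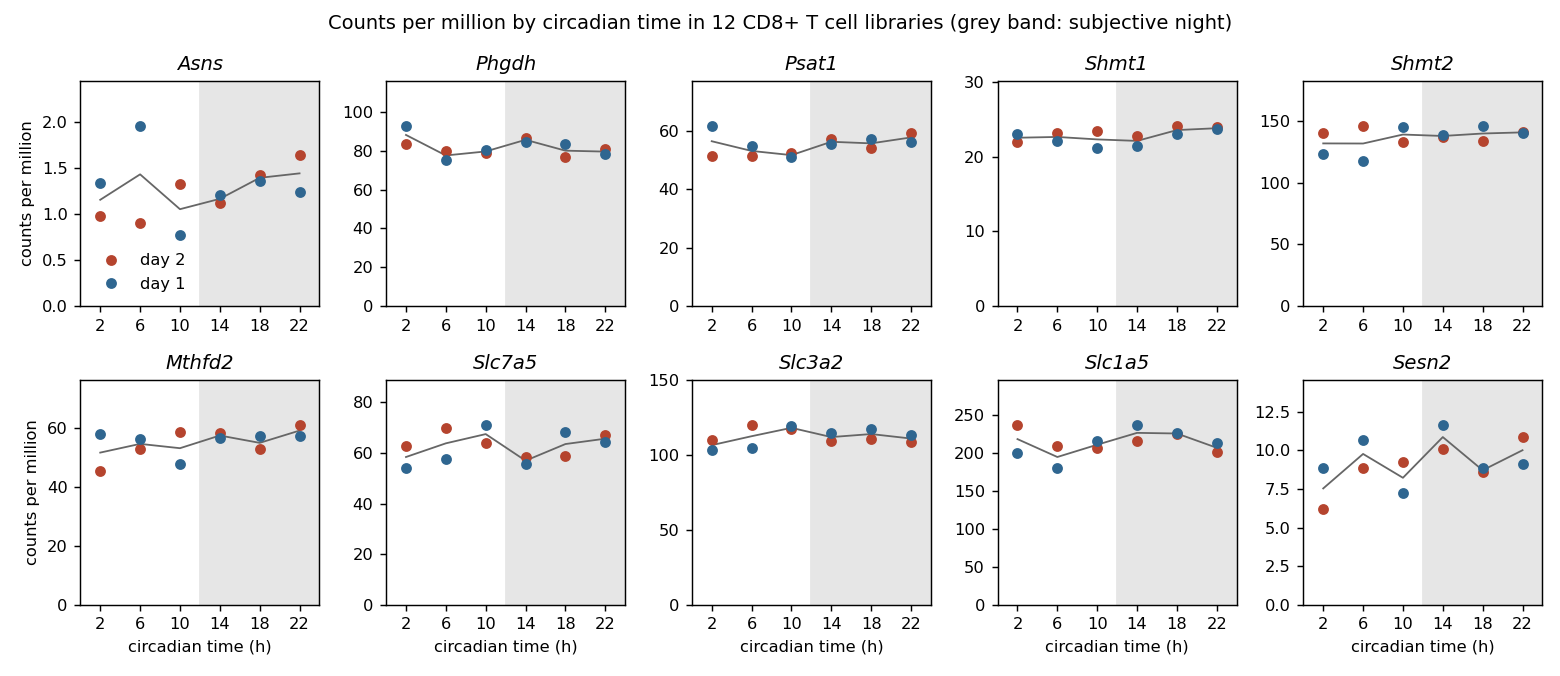
CPM (linear axes from 0) of each gene against circadian time in hours. Red points are day 2, blue points are day 1, the line joins the means of the 2 libraries of a time and the grey band is the subjective night. Most genes run flat, and Asns and Sesn2, the scarcest, scatter most in proportion to their level.

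The levels were steady in relative terms too. The coefficient of variation of CPM over the 12 libraries had a median of 6.98% for the 10 genes, against 11.6% for all tested genes and 7.46% for the 10153 tested genes of at least 5 CPM. Shmt1 varied least, and Sesn2 and Asns most, at 16.5% and 25.3%. Fitted 24 h amplitudes, the log2 distance from mean to peak, had a median of 0.05 for the 10 genes, against 0.10 for all tested genes and 0.07 for those of at least 5 CPM. The log2 span between the highest and lowest of the 6 times had a median of 0.19, against 0.34 and 0.22.

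The fitted amplitudes had wide intervals for the scarce genes. Psat1 had an amplitude of 0.07 ± 0.03 log2 (SE) with an unadjusted p of 0.158, the smallest of the 10 (edgeR's quasi-likelihood test, adjusted p = 0.516), and Slc1a5 had 0.08 ± 0.04. Amplitude plus 2 standard errors reached 0.44 for Asns, 0.29 for Sesn2 and 0.16 for Slc1a5, and 0.15 or less for each of the other 7. As a ratio of peak to trough these values are 1.84 for Asns, 1.497 for Sesn2 and 1.24 for Slc1a5. With 1 library less the fitted amplitude itself ran from 0.05 (without CT10 of day 1) to 0.30 (without CT6 of day 1) for Asns, from 0.04 (without CT2 of day 2) to 0.17 (without CT6 of day 1) for Sesn2 and from 0.05 (without CT6 of day 1) to 0.12 (without CT2 of day 2) for Slc1a5.

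The serine synthesis genes differed little over the day. Phgdh (ENSMUSG00000053398.11, chromosome 3, 98313170 to 98339990, minus strand, GRCm38 with GENCODE M21, as for the other genes) had CPM of 83.6 and 92.7 at CT2, 79.9 and 75.3 at CT6, 79.1 and 80.2 at CT10, 86.5 and 84.7 at CT14, 76.5 and 83.6 at CT18 and 80.8 and 78.4 at CT22 (day 2 and day 1 at each time). The highest library was CT2 of day 1, and night and day overlapped, with medians of 82.2 CPM in night libraries and 80.1 CPM in day libraries. The log2 difference of night minus day was -0.00041 ± 0.049 (SE), and the 6 times gave an unadjusted p of 0.130 with an adjusted p of 0.512 (edgeR's quasi-likelihood F test with Benjamini-Hochberg adjustment). Psat1 (chromosome 19, 15904678 to 15947337) had 54.3, 56.7 and 59.4 CPM as lowest, median and highest of 6 night libraries, and 51.1, 51.9 and 61.7 CPM of 6 day libraries. All night libraries of Psat1 but CT18 of day 2 lay above all day libraries but CT2 of day 1. The difference was 0.07 ± 0.05 log2 (SE, adjusted p = 0.441 in the same test). With 1 library less it ran from 0.06 to 0.12 log2, and Psat1 passed in none of these fits.

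The folate-cycle genes were similarly level. Shmt1 (chromosome 11, 60788104 to 60811718) ranged from 21.4 to 24.1 CPM (median 23.4) in night libraries and from 21.2 to 23.4 CPM (median 22.6) in day libraries, a difference of 0.04 ± 0.05 log2 (SE). Shmt1 shares exon positions with Smcr8, and Shmt2 with Ndufa4l2, both on the opposite strand, and the counts used were those of the matching strand. The night and day ranges of Shmt1 overlapped, and CT18 of day 2 and both CT22 libraries lay above the highest day library.

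Shmt2 showed its low values in 2 libraries. The gene (ENSMUSG00000025403.5) lies on chromosome 10 at 127517123 to 127522444, on the minus strand. It had CPM of 140.0 and 123 at CT2, 145 and 118 at CT6, 133 and 145 at CT10, 136 and 139 at CT14, 134 and 146 at CT18 and 141.0 and 140.2 at CT22 (day 2 and day 1). CT2 and CT6 of day 1 lay under 133 CPM, the other 4 libraries of day 1 reached 139 CPM or more, and day 2 spread over 133 to 145 CPM with no low library at these times. The wave of Shmt2 differed between day 2 and day 1 at an unadjusted p of 0.0327, which gave an adjusted p of 0.825 (edgeR's quasi-likelihood F test with Benjamini-Hochberg adjustment). No other of the 10 genes had an unadjusted p under 0.05 in any of the 5 tests. The log2 difference of night minus day of Shmt2 was 0.06 ± 0.05 (SE), and 0.10 without CT2 of day 2 and CT10 of day 1.

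Mthfd2 (ENSMUSG00000005667.8, chromosome 6, 83305691 to 83325908, minus strand), which activated T cells are known to raise, had CPM of 45.3 and 57.9 at CT2, 53.0 and 56.2 at CT6, 58.6 and 47.6 at CT10, 58.3 and 56.6 at CT14, 52.8 and 57.1 at CT18 and 61.1 and 57.1 at CT22 (day 2 and day 1). The 2 lowest libraries were CT2 of day 2 and CT10 of day 1, and the other 10 lay between 52.8 and 61.1. The fitted difference of night minus day was 0.11 ± 0.06 log2 (SE), with an adjusted p of 0.394 in edgeR's quasi-likelihood test. The 2 low libraries also held the least dendritic, monocyte, NK and CD4 T cell markers and the lowest sums of proliferation genes. Mthfd2 had a Pearson r of 0.74 with the proliferation sum (permutation p = 0.00695, adjusted over 100 relations 0.0534). That r was 0.38 without these 2 libraries. The part of those cells or of proliferation in the difference was not tested. Without these 2 libraries, a choice made after seeing the data, the log2 difference was 0.02.

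The transporters gave differences around 0. Slc7a5 (chromosome 8, 121881150 to 121907694) ranged from 55.5 to 68.4 CPM (median 61.4) in night libraries and from 54.0 to 71.2 CPM (median 63.2) in day libraries, and its log2 difference of night minus day was -0.03 ± 0.07 (SE). Slc3a2 (chromosome 19, 8706882 to 8723369) ranged from 109 to 117 CPM (median 112) in night libraries and from 103 to 120 CPM (median 114) in day libraries, with a difference of -0.0013 ± 0.044 log2 (SE). For both genes the night range lay within the day range, and the lowest library of the 12 was CT2 of day 1. Slc1a5 (chromosome 7, 16781340 to 16798274, plus strand) ranged from 202 to 238 CPM (median 221) in night libraries and from 180 to 237 CPM (median 208) in day libraries, with a difference of 0.08 ± 0.06 log2 (SE, adjusted p = 0.497 in edgeR's quasi-likelihood test). Without CT2 of day 2 and CT10 of day 1 this difference was 0.14 (adjusted p = 0.276 in the same test), and without CT6 of day 1 it was 0.04. CT14 had the highest mean of Slc1a5, 227 ± 15.2 CPM, and CT6 the lowest, 195 ± 20.8 CPM (SD, n = 2 each).

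The amino acid sensor gene Sesn2 had a span of 0.53 log2 over the 6 times, which was 0.40 without CT2 of day 2, 0.81 without CT2 of day 1 and 0.32 without CT2 of day 2 and CT10 of day 1. It lies on chromosome 4 at 132492032 to 132510501, on the minus strand (ENSMUSG00000028893.8). It had CPM of 6.23 and 8.84 at CT2, 8.86 and 10.7 at CT6, 9.24 and 7.22 at CT10, 10.1 and 11.7 at CT14, 8.59 and 8.84 at CT18 and 10.9 and 9.13 at CT22 (day 2 and day 1). CT2 of day 2 and CT10 of day 1 were lowest, as for Mthfd2, and the night range of 8.59 to 11.7 CPM overlapped the day range of 6.23 to 10.7 CPM. The fitted difference of night minus day was 0.21 ± 0.12 log2 (SE), with the smallest p of the 10 genes in this contrast, 0.0962 unadjusted and 0.372 adjusted (edgeR's quasi-likelihood F test with Benjamini-Hochberg adjustment). Without the 2 low libraries the log2 difference was 0.07, with an adjusted p of 0.776 in the same test.

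Asns was near the lower end of what these libraries can count. The gene (ENSMUSG00000029752.12) lies on chromosome 6 at 7675169 to 7693254, on the minus strand. It had 26 and 36 reads at CT2, 24 and 55 at CT6, 33 and 22 at CT10, 37 and 39 at CT14, 39 and 36 at CT18 and 44 and 34 at CT22 (day 2 and day 1). The count of 22 has an exact Poisson 95% interval of 13.8 to 33.3, and the count of 55 one of 41.4 to 71.6, for counting error only. Counting alone would give a coefficient of variation of 16.8%, against the 25.3% seen. The log2 difference of night minus day was 0.13 ± 0.21 (SE), and 2 standard errors to each side reached from -0.28 to 0.54. The difference was 0.03 without CT10 of day 1, 0.32 without CT6 of day 1 and -0.058 without CT2 of day 2 and CT10 of day 1.

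**Figure D3:**
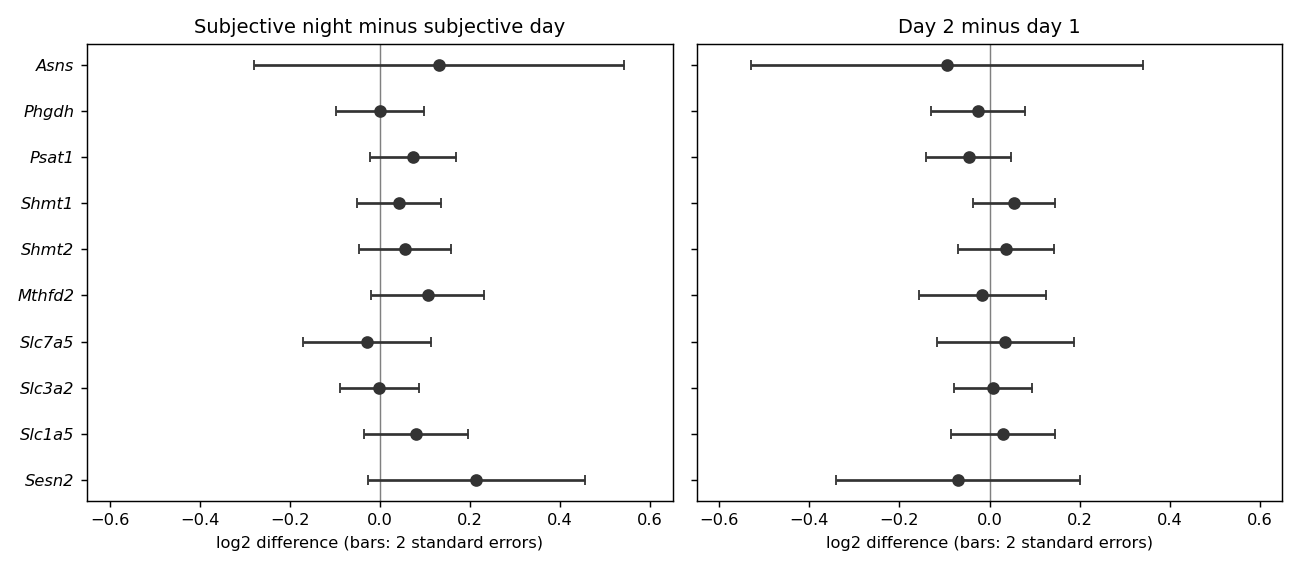
Log2 difference of each gene for subjective night minus subjective day (left) and day 2 minus day 1 (right). Points are edgeR estimates from 12 libraries and bars span 2 standard errors to each side. Every bar crosses 0, and those of Asns and Sesn2 are widest.

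Over the 10 genes, 7 had a fitted difference above 0 for night minus day, as had 47.6% of all tested genes. Of all tested genes 0.171% passed as higher and 0.25% as lower at night. With RLE factors 9 of the 10 genes were above 0, and with limma on TPM all 10. Phgdh and Slc3a2 changed sign in both settings, and Slc7a5 with limma alone. Phgdh moved from -0.00041 ± 0.049 log2 (SE) by edgeR to 0.075 by limma on TPM. Why the signs changed was not tested. The median log2 difference was 0.06 for the 10 genes and -0.01 for all tested genes. Night and day ranges were apart for 0 of 10 genes, and for 1.88% of all tested genes. Between the days of collection 5 of the 10 genes had a difference of day 2 minus day 1 above 0, against 9 by limma on TPM, and 50.7% of all tested genes had one above 0. The median of this log2 difference was -0.0042 for the 10 genes, and the largest in size among the 8 genes above 20 CPM was 0.05 ± 0.05 log2 for Shmt1 (SE, unadjusted p = 0.257 in edgeR's quasi-likelihood test). Summed B cell markers stood at 218 ± 33.4 CPM in day 2 libraries and 296 ± 33.9 CPM in day 1 libraries (SD, n = 6 each). All 8 of these markers had a day 2 minus day 1 difference below 0, from -0.53 to -0.27 log2, of which 7 had an unadjusted p under 0.05 and 0 passed after adjustment in edgeR's test, and their part in the day differences of the 10 genes was not tested.

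The 10 genes did not vary as 1 block. Of 45 pairs, 21 had a positive and 24 a negative Pearson r of log2 CPM across the 12 libraries, with a median of -0.05. In log2 TPM the median r was 0.46, and 6 of the 10 genes had their lowest TPM in CT2 of day 1, against 2 with their lowest CPM there, so the overall sign depended on the unit. Mthfd2 and Sesn2 gave the highest r in CPM, 0.85 (permutation p = 0.00086, adjusted over 45 pairs 0.0387), with a Spearman rho of 0.62 (permutation p = 0.0346, adjusted 0.311), and it was the single pair under 0.05 after adjustment. The r was 0.97 within day 2 and 0.66 within day 1, and fell to 0.44 without CT2 of day 2 and CT10 of day 1, so the relation rested on these libraries.

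The next highest r of the 45 pairs joined Shmt2, Slc7a5 and Slc3a2 with each other, and Psat1 with Mthfd2. Shmt2 and Slc3a2 had r = 0.77 (permutation p = 0.0024, adjusted 0.0540), and their rho was 0.67 (permutation p = 0.0201, adjusted 0.226), with 0.23 within day 2, 0.96 within day 1 and 0.47 without CT2 and CT6 of day 1. Shmt2 and Slc7a5 had r = 0.73 (permutation p = 0.0041, adjusted 0.0618), and their rho was 0.83 (permutation p = 0.0014, adjusted 0.0612), with 0.77 within day 2, 0.73 within day 1 and 0.72 without the same libraries. The exchanger chains Slc7a5 and Slc3a2 had r = 0.71 (permutation p = 0.0104, adjusted 0.0936), and their rho was 0.71 (permutation p = 0.0114, adjusted 0.171), with 0.55 within day 2, 0.79 within day 1 and 0.78 without CT2 and CT14 of day 1. Psat1 and Mthfd2 had r = 0.73 (permutation p = 0.00646, adjusted 0.0727), and their rho was 0.74 (permutation p = 0.00778, adjusted 0.171). Their r was 0.70 within day 2, 0.81 within day 1 and 0.72 without CT2 and CT10 of day 1. None of these pairs passed after adjustment over the 45 pairs.

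Some of the scatter went with marker genes of proliferation or of other cells. Over 100 relations of the 10 genes with 10 marker sums, 9 had a Pearson r with an adjusted permutation p under 0.05. Within single days these 9 kept their sign, with r from 0.67 to 0.95 for the 7 positive ones and from -0.47 to -0.89 for the 2 negative ones. Sesn2 followed the summed dendritic cell markers most closely, with r = 0.94 (permutation p = 4e-05, adjusted 0.004) and rho = 0.90 (adjusted permutation p = 0.0200). That r was 0.94 within day 2, 0.95 within day 1 and 0.80 without CT2 of day 2 and CT10 of day 1. Sesn2 also went up with CD4 T cell markers (r = 0.79, adjusted permutation p = 0.0410, rho = 0.63, and r = 0.51 without those 2 libraries). It went down with the CD8 T cell genes (r = -0.78, adjusted permutation p = 0.0410, rho = -0.74, and r = -0.60 without CT2 of day 2 and CT6 of day 1). For Mthfd2 the r with dendritic markers was 0.86 (adjusted permutation p = 0.0344, rho = 0.52) and 0.33 without CT2 of day 2 and CT10 of day 1, so it rested on these libraries.

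Shmt2 ran against a sum of 10 proliferation genes such as Mki67 and Top2a, with r = -0.81 (permutation p = 0.0014, adjusted 0.029) and rho = -0.71 (adjusted permutation p = 0.136). The proliferation sum was 795 CPM in CT2 and 794 CPM in CT6 of day 1, where Shmt2 was lowest, and 508 to 690 CPM in the other 10 libraries. The r was -0.47 within day 2, -0.89 within day 1 and -0.77 without CT2 and CT10 of day 1. Asns went up with the same sum (r = 0.79, adjusted permutation p = 0.0344, rho = 0.65, and r = 0.80 without those libraries). That r was 0.61 without CT2 of day 2 and CT10 of day 1. Asns had only 22 to 55 reads per library, so counting error is large in its relations. It also went up with CD4 T cell markers (r = 0.82, adjusted permutation p = 0.0205, rho = 0.80) and NK markers (r = 0.77, adjusted permutation p = 0.0290, rho = 0.83), where r was 0.74 and 0.60 without CT2 of day 2 and CT10 of day 1. Shmt1 went up with monocyte and macrophage markers (r = 0.83, adjusted permutation p = 0.029, rho = 0.82, and r = 0.74 without the same 2 libraries). Of the 9 relations, the rho of Sesn2 with dendritic cell markers was the single one with an adjusted permutation p under 0.05. These sums differ between libraries and partly between night and day, with 314 ± 25.9 CPM of dendritic cell markers in night libraries and 284 ± 68.1 CPM in day libraries (SD, n = 6 each), and their part in the levels of the 10 genes was not tested.

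**Figure D4:**
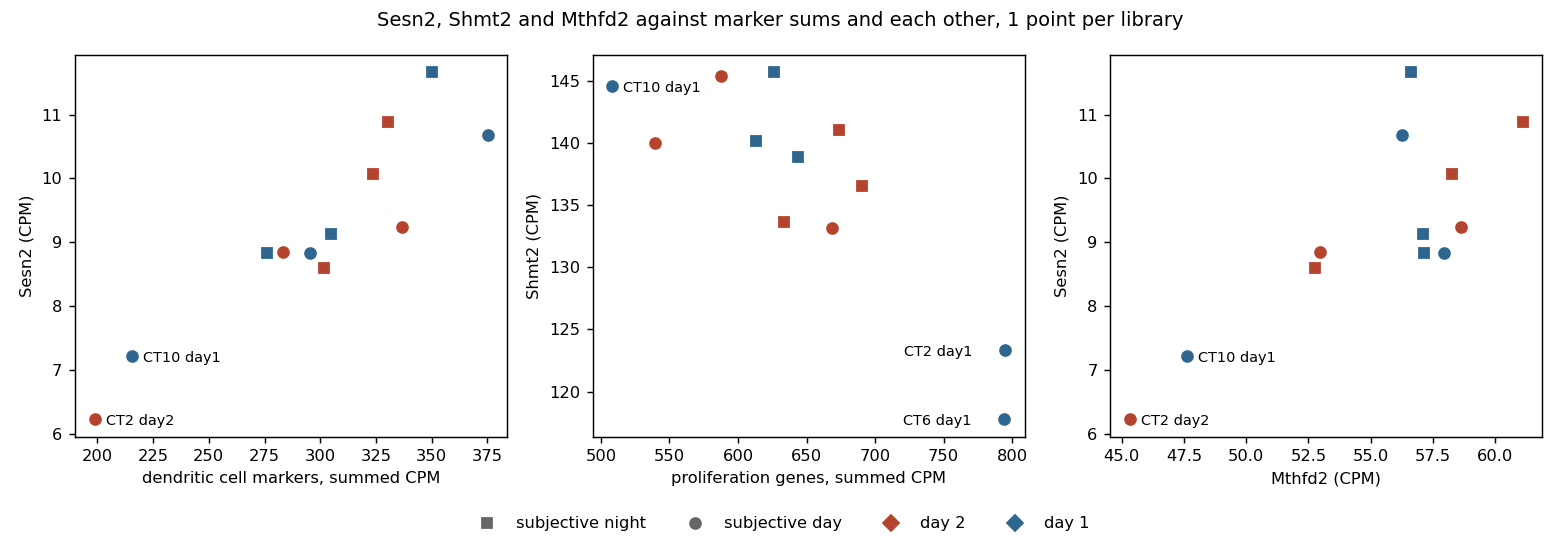
Left, Sesn2 against 6 dendritic cell markers (summed CPM). Middle, Shmt2 against 10 proliferation genes (summed CPM). Right, Sesn2 against Mthfd2. Each point is 1 library, squares are subjective night, circles subjective day, red day 2 and blue day 1. CT2 of day 2 and CT10 of day 1 stand apart at the low end on the left and right, with r = 0.94, -0.81 and 0.85.

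A search of 9649 tested genes over 12 libraries favours high r, and genes from outside those described here, by selection alone. What r unrelated genes would reach in such a search was not tested, so no relation is drawn from these values. The genes most like each gene all came from outside those described here. For Asns these were Phf24 (r = 0.95) and Knl1 (0.94), for Phgdh Eif3c (0.95) and Tex10 (0.93), and for Psat1 Mob1a (0.97) and Snx6 (0.93), all as Pearson r of log2 CPM. For Shmt1 they were Lst1 (r = 0.92) and Klrc2 (0.90), for Shmt2 Gsk3a (0.94) and Mybbp1a (0.93), and for Mthfd2 Cpne2 (0.96) and Clic4 (0.96). The transporters gave Dnajc30 (r = 0.94) and Vars (0.91) for Slc7a5, Vps11 (0.95) and Sltm (0.92) for Slc3a2 and Acap1 (0.97) and Rasal3 (0.95) for Slc1a5, and Sesn2 gave Arhgef40 (0.96) and Dscaml1 (0.95). In log2 TPM r was 0.10 for Tex10 and Phgdh, 0.11 for Lst1 and 0.43 for Klrc2 with Shmt1, 0.59 for Phf24 and 0.52 for Knl1 with Asns and 0.64 for Snx6 with Psat1, and it was 0.81 or more for the other 14 genes.

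The wider pathways held 124 further genes in 6 lists, and 119 of them were tested. Under edgeR's quasi-likelihood test, 0 passed for the 24 h wave, 1 for the circadian times, 1 for night against day, 0 for the day and 0 for the wave by day, with 28, 23, 23, 3 and 6 at an unadjusted p under 0.05. These are 23.5%, 19.3%, 19.3%, 2.52% and 5.04% of the 119 genes, where 13.3%, 12.7%, 17.6%, 1.82% and 4.44% of all tested genes lay under that limit. Aldh1l2, Gldc, Cth, Cbs and Chac1 had too few counts to be tested, with a mean of under 2 reads per library. Median log2 differences of night minus day were 0.0077 for 25 serine and folate genes, 0.0545 for 15 amino acid transporters, 0.0358 for 16 amino acid synthesis genes, 0.0320 for 17 ATF4-linked stress genes, -0.0200 for 20 transfer RNA synthetases and -0.0251 for 26 amino acid sensing genes, where all tested genes had -0.0079.

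Slc16a10, a transporter of aromatic amino acids, was higher at night. It had 19.6, 18.2 and 18.7 CPM at CT14, CT18 and CT22 of day 2 and 19.9, 20.7 and 20.2 CPM on day 1, against 15.6, 14.1 and 14.4 CPM at CT2, CT6 and CT10 of day 2 and 15.1, 13.7 and 13.4 CPM on day 1. All 6 night libraries lay above all 6 day libraries, and night and day ranges were apart, in either direction, for 1.88% of all tested genes. The log2 difference was 0.44 ± 0.06 (SE, adjusted p = 0.0149 by edgeR's quasi-likelihood test), and 0.45 with an adjusted p of 0.0292 without CT10 of day 1 and CT2 of day 2. The call was lost without CT6 of day 2, CT10 of day 1, CT14 of day 1 or CT14 of day 2, where adjusted p lay between 0.0556 and 0.0722 at differences of 0.42 to 0.44, without both CT14 libraries (adjusted p = 0.196) and by limma on TPM (adjusted p = 0.0861). Monocyte and macrophage markers summed to 802 ± 249 CPM in night libraries and 503 ± 218 CPM in day libraries (SD, n = 6 each), and their part was not tested.

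Ddit4, an inhibitor of mTORC1 raised under stress, differed among the circadian times, with a span of 1.00 log2 (adjusted p = 0.0216 by edgeR's quasi-likelihood test). Its CT10 libraries held 111 CPM on day 2 and 113 CPM on day 1, and the other 10 held 49.1 to 74.7 CPM. Its adjusted p was above 0.05 without any 1 of 9 libraries, the exceptions being both CT2 libraries and CT6 of day 2, and ranged there from 0.0514 to 0.160. It was 0.144 without both CT14 libraries and 0.345 by limma on TPM. The span of Ddit4 stayed between 0.99 and 1.13 log2 in all settings that lost the call. In the sestrin family, Sesn1 stood at 77.0 ± 2.56 CPM in night libraries and 87.9 ± 6.88 CPM in day libraries (SD, n = 6 each), a log2 difference of -0.19 ± 0.05 (SE, adjusted p = 0.0825) that did not pass. It passed with DESeq2 (adjusted p = 0.0191), without CT2 of day 1 (-0.23, adjusted p = 0.0120) and without both CT2 libraries (-0.25, adjusted p = 0.00484). In these settings 595, 787 and 695 of all genes passed, against 69 in the edgeR fit of all 12 libraries. Sesn2 had a fitted difference of the sign opposite to Sesn1, 0.21 ± 0.12 log2 (SE), that did not pass. Without CT2 of day 2 and CT10 of day 1 it was 0.07 for Sesn2 and -0.17 for Sesn1. Sesn3 had 0.05 ± 0.06 log2 (SE), and the sestrin genes were not tested against each other.

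Other genes named by the smallest p in their list did not pass with all 12 libraries (edgeR's quasi-likelihood test), and several did in other settings. Mat2a, which makes the methyl donor S-adenosylmethionine, averaged 275 ± 9.60 CPM at CT14 and 202 ± 4.97 CPM at CT6 (SD, n = 2 each), and its adjusted p over the times was 0.0687. Cebpg, a partner of ATF4, was at 52.6 ± 2.44 CPM in night libraries and 46.6 ± 2.36 CPM in day libraries (SD, n = 6 each, adjusted p = 0.0790). In log2 night minus day, Slc38a2, a sodium-coupled neutral amino acid transporter, had 0.13 ± 0.04 and the purine synthesis gene Atic 0.13 ± 0.04 (SE). Glul, which makes glutamine, had 0.12 ± 0.05 and Nupr1 0.79 ± 0.34 at 2.52 CPM (SE). Without CT10 of day 1 and CT2 of day 2 these differences were 0.12 for Slc38a2, 0.16 for Atic, 0.08 for Glul and 0.40 for Nupr1. On the negative side were the transfer RNA synthetase genes Sars at -0.12 ± 0.03 and Lars at -0.17 ± 0.06, the amino acid sensing gene Nprl3 at -0.21 ± 0.06 and, from the transporter list, Slc38a9 at -0.17 ± 0.07, all as log2 (SE). Over the 6 times the log2 spans were 0.35 for Got1, 0.42 for Odc1 and 0.34 for the synthetase gene Dars, with adjusted p from 0.213 to 0.320. Without CT10 of day 1 and CT2 of day 2, 1359 genes passed over the times, against 42 with all libraries. Mat2a (adjusted p = 0.00697), Dars (0.0115), Slc16a10 (0.0164), Lars (0.0207), Odc1 (0.0233), Nprl3 (0.0447) and Sesn1 (0.0488) were among them by the same test. These 7 genes passed without CT2 of day 2 alone as well, together with Slc38a9 (adjusted p = 0.0352) and Got1 (0.0499), where 1745 genes passed. For night against day DESeq2 passed Mat2a, Atic, Slc38a2, Cebpg and Sars at adjusted p from 0.00995 to 0.0425. It passed 595 of all tested genes there, against 69 by edgeR. Without CT2 of day 1, edgeR passed Cebpg (adjusted p = 0.0398), Sars (0.0301) and Nprl3 (0.0392) in that comparison, where 787 genes passed. Without both CT2 libraries it passed Sars (0.0350) and Nprl3 (0.0361), where 695 genes passed. Over the times, Mat2a, Slc16a10, Lars and Sesn1 also passed with DESeq2, with no filter on low counts and without both CT2 libraries. In these settings 516, 2146 and 527 genes passed. Among stroma and endothelium markers Pecam1 passed at night minus day, with -0.23 log2 (adjusted p = 0.0282), and its call was lost without any 1 of 9 libraries at adjusted p from 0.0519 to 0.0942, and at 0.122 without CT10 of day 1 and CT2 of day 2. Its log2 difference lay between -0.23 and -0.18 in all settings that lost the call. Pecam1 held 129 to 167 CPM in the 12 libraries, and its whole marker list summed to 139 to 190 CPM. The sum was therefore mostly Pecam1, and which cells gave these counts was not tested.

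**Figure D5:**
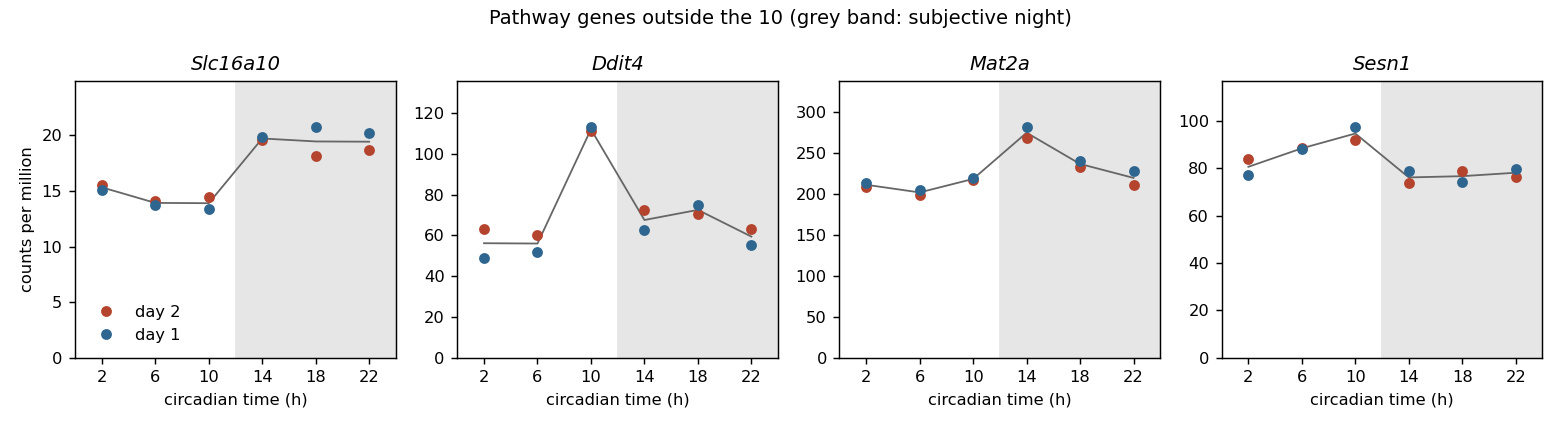
CPM (linear axes from 0) of 4 pathway genes outside the 10 against circadian time in hours, with red points for day 2, blue points for day 1, lines through the means and the subjective night in grey. Slc16a10 sits at 18.2 to 20.7 CPM in night libraries and 13.4 to 15.6 CPM in day libraries, and Ddit4 stands out at CT10.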

How the data were processed

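Polyadenylated RNA of 12 libraries had been extracted with TRIzol and an RNeasy kit and prepared with a KAPA HyperPrep polyA kit, per the labels' protocols. The submitters' processing notes list STAR 2.5.1b, RSEM 1.2.28, Trimmomatic 0.35 and bcl2fastq 2.19, and the build GRCm38. The annotation release is not given in the sources used here. For each library the authors deposited whole-number counts per gene in 3 columns by strand, of which column 4 was used. Between 29.3% and 31.2% of reads stood in rows that name no gene and were left out. The authors also deposited RSEM expected counts, TPM scaled by RSEM to a fixed sum in each library, and FPKM scaled to length and library size, per the file headers.

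Counts were tested with edgeR 4.0.16 (R 4.3.3): filterByExpr by circadian time kept 16396 genes, TMM factors gave CPM, and quasi-likelihood F tests were adjusted by Benjamini-Hochberg at 0.05. The tests covered a cosine and sine of 24 h, the 6 times, night against day, day 2 against day 1 beside the wave, and the wave by day. Alternatives were DESeq2 1.42.0, RLE factors, no filter, rounded expected counts, limma 3.58.1 on log2(TPM + 0.5), left-out libraries and a block for the day.

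Replicate numbers stand for collection days in the labels and in that sense pair the libraries. For 15 pairs of times, the deviations between days had correlations of -0.60 to 0.35 (median 0.08), and 6 exceeded 0.1. Correlations across libraries used 100000 two-sided permutations and log2 CPM with a prior count of 2. They treat the 2 libraries of a time as independent, and their p-values were added after the values were seen. edgeR's common dispersion corresponded to a biological coefficient of variation of 0.0967.

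The 10 genes, the pathway and marker lists and the tests were chosen with earlier results of these data known. Named were the 10 genes, the 2 genes of at least 5 CPM most like each, in each pathway list the 2 genes of smallest p over the times and for night against day, and every list gene that passed a test. One gene that this rule names is not reported here. Slc7a6, Slc7a7 and others with small unadjusted p fell outside the rule. Promoter windows came from RefSeq tables of GRCm38.p6, and Slc7a5 and Slc1a5 have none there. No time had libraries that agreed within counting noise: chi-square divided by its degrees of freedom was 35.9 at CT2 and 2.87 at CT18, the extremes.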

Additional observations from a re-analysis of the deposited data

Results flagged for a closer look

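Of 40 groups of 6 libraries checked (each of the 10 genes in night, day, day 2 and day 1), 2 held a library far from the others, about as many as the 1 in 20 that chance gives. Psat1, the second enzyme of serine synthesis, had 61.7 CPM in CT2 of day 1, and the next highest of the 6 subjective day libraries had 55.0 CPM. Mthfd2 had 47.6 CPM in CT10 of day 1, and the next lowest of the 6 libraries of day 1 had 56.2 CPM. That library also held the lowest sum of proliferation genes, 508 CPM, and of monocyte and macrophage markers, 277 CPM, and their part in the Mthfd2 value was not tested.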

How the results depend on the processing

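None of the 10 genes passed in any of 114 alternative fits over the 5 tests, and their smallest adjusted p was 0.0638 (night against day without CT2 of day 1). Counts over all genes moved more. For the 24 h wave (0 genes), DESeq2 passed 246, no filter 323, leaving out both CT2 libraries 431, and leaving out CT10 of day 1 and CT2 of day 2, a choice made after seeing the data, 74, and without 1 library the count was 0 to 145. For the times (42), these gave 516, 2146, 527 and 1359, limma on TPM 14, with a pseudocount of 0.1 13 and with at least 1 TPM 20, no CT14 libraries 0, the day as a block 20, and 1 library less 6 to 1745. For night against day (69), DESeq2 gave 595, no filter 35, expected counts 16 and the limma settings 1, 1 and 0. Leaving out both CT2 libraries gave 695, both CT14 libraries 0 and CT10 of day 1 with CT2 of day 2 (the pair) 2. The day as a block gave 9, and 1 library less 0 to 787. For day 2 against day 1 (0), DESeq2 and no CT2 libraries gave 6 each, without the pair 16, and 1 library less 0 to 2. For the wave by day (0), without the pair there was 1, and 1 library less gave 0 to 1. The cause was not tested. The block changed no call of a named gene. The median log2 range of the 10 genes was 0.35 in CPM and 0.54 in TPM, and the median r between them was -0.05 in CPM and 0.46 in TPM.

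Several fitted differences changed sign with the setting. Day 2 minus day 1 of Asns was -0.095 ± 0.22 log2 (SE) in the edgeR fit of all 12 libraries. By limma on TPM, 9 of the 10 genes were above 0 in that comparison, against 5 by edgeR. Night minus day of Phgdh was 0.00453 (DESeq2), 0.0044 (RLE factors), 0.00315 (no filter), 0.021 (expected counts), 0.075, 0.076 and 0.075 (limma), 0.059 (no CT2 libraries) and 0.00151 (without the pair), and -0.023 to 0.040 with 1 library less. For Slc3a2 it was 0.0036, 0.00359, 0.00211, 0.033, 0.034 and 0.033 in the same settings but expected counts, 0.00373 (no CT14 libraries) and 0.013 (without the pair), and -0.024 to 0.020 with 1 library less. For Slc7a5 it was 0.045, 0.046 and 0.045 (limma), 0.034 (no CT14 libraries) and 0.016 (without the pair), and -0.069 to 0.00954 with 1 library less, and for Asns -0.058 (without the pair). Day 2 minus day 1 under limma was 0.20, 0.25 and 0.20 for Asns, 0.077, 0.077 and 0.077 for Phgdh, 0.021, 0.022 and 0.021 for Psat1 and 0.022, 0.023 and 0.022 for Mthfd2. Without the CT2 libraries it was 0.00307 for Phgdh, 0.047 for Mthfd2, -0.0094 for Slc3a2 and -0.014 for Slc1a5, and without the pair -0.013 for Slc1a5. With 1 library less it ran from -0.20 to 0.11 for Asns, -0.054 to 0.017 for Phgdh, -0.00022 to 0.066 for Shmt2, -0.060 to 0.041 for Mthfd2, -0.014 to 0.090 for Slc7a5, -0.016 to 0.029 for Slc3a2, -0.019 to 0.059 for Slc1a5 and -0.16 to 0.015 for Sesn2.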
